A study of Mus musculus with 5 samples.

Results

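The genes described here are Igf1, the gene of insulin-like growth factor 1, and 6 genes of the IGF-binding protein family, Igfbp2, Igfbp3, Igfbp4, Igfbp5, Igfbp6 and Igfbp7. They were taken by gene symbol, without regard to their values, and are 7 of the 30099 gene symbols listed in the 5 libraries. All 7 were counted in at least 1 cell of every library. Each library held single marrow cells from femurs of Lepr-cre; R26R-tdTomato mice, from which the growth plates at the knee end and the whole hip end of the bone had been taken off, and cells positive for tdTomato were sorted before loading on a BD Rhapsody instrument. In these mice a Cre recombinase under Lepr, the leptin receptor gene, switches on the red protein tdTomato, so that the sort covers cells of the Lepr lineage and not the whole stroma; all groups share this genotype and reporter. The naive mice were 15 weeks old and had undergone ablation of the marrow at an age of 13 weeks. Exhausted denotes a repeated injury, with surgery at 9 weeks, a second ablation at 13 weeks and collection at 15 weeks. Mice of 18 months gave the aged-injury library, 1 week after ablation, and the aged library, without surgery. Control mice were 15 weeks old and had no surgery. Marrow ablation removes the contents of the marrow cavity, which then refills through a phase of bone formation.

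Insulin-like growth factor 1 is a secreted growth factor that acts through the receptor encoded by Igf1r and stimulates growth and differentiation of bone-forming cells. The IGF-binding proteins are secreted too: they hold the growth factor, lengthen its stay in blood and tissue and decide how much of it reaches the receptor. Some are cut by proteases, such as the pappalysins encoded by Pappa and Pappa2, which releases the growth factor again, and the stanniocalcins encoded by Stc1 and Stc2 block the pappalysins.

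There was 1 library per group, so no difference could be set against a spread between animals, no test between groups was possible, and the number of mice behind a library is not given in the sources used here. Age, surgery and any handling of a library on its own cannot be told apart. After filtering, 5242 cells were kept in naive, 6277 in exhausted, 19497 in aged-injury, 7560 in aged and 9253 in control. Cells were put into classes by marker genes, none of which is a gene described here, and a class is called after the cell type whose markers it carries ("reticular-like"). Stromal cells made up 44.3% of the kept cells in exhausted and 67.3% to 88.1% in the other 4 libraries. Their median depth was 6671 to 9677 UMIs, the molecules counted per cell. tdTomato stood at 66.7 to 88.7 CPM (UMI counts scaled to a common total) in stromal cells and at 2.11 to 12.8 CPM in cells with blood markers, which are kept as background. Levels below are CPM of UMIs summed over the cells of a class in a library, and they are compared within a gene only, since they were not scaled by transcript length. The 95% intervals are exact and cover counting error only, which leaves out differences between animals and between cells. Reticular-like cells, which carry Cxcl12, Lepr, Adipoq, Kitl and related markers, numbered 2282 in naive, 2113 in exhausted, 11592 in aged-injury, 5650 in aged and 5949 in control. The gate is a line through a range of scores: 832, 436, 2576, 933 and 706 stromal cells of naive, exhausted, aged-injury, aged and control had a score within 1.5-fold of it.

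Reticular-like cells had the highest levels of Igfbp4 and Igfbp5 among the classes of at least 20 cells in every library, while Igfbp3 had no single leading class. Igfbp5, whose protein binds the growth factor and also the bone matrix, had 15832 to 33895 CPM in reticular-like cells over the 5 libraries. Its next class, the fibroblast-like cells, had 9960 to 24019 CPM in the 3 libraries with at least 20 such cells, and although these ranges overlap, reticular-like cells were above fibroblast-like cells within each of the 3, with 18776 against 9960 CPM in aged-injury, 33895 against 19976 CPM in aged and 32696 against 24019 CPM in control. Reticular-like cells held 90.7% to 97.7% of the Igfbp5 UMIs of all stromal cells. Igfbp4, which encodes a binding protein that mainly restrains the growth factor until a pappalysin cuts it, had 4606 to 9029 CPM in reticular-like cells. That range lay above every other class, of which adipocyte-like cells came next with 2244 to 4419 CPM in 3 libraries. Igfbp3 encodes the main carrier of the growth factor in blood. It had 236 to 634 CPM in reticular-like cells, 174 to 362 CPM in fibroblast-like cells and 109 to 385 CPM in endothelial-like cells, and these ranges overlap. Endothelial-like cells were above reticular-like cells in naive, with 373 against 236 CPM, and in aged-injury, with 385 against 256 CPM, where fibroblast-like cells had 273 CPM. By the median over libraries reticular-like cells led for Igfbp3, but fibroblast-like cells did so when cells were thinned to a common depth or averaged per cell.

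The other 4 genes were highest outside the reticular-like cells. Igf1 itself had 1300 to 2827 CPM in fibroblast-like cells of 3 libraries, above every other class. Adipocyte-like cells followed with 647 to 1007 CPM, reticular-like cells with 445 to 873 CPM and pericyte and smooth muscle-like cells with 379 to 785 CPM, and these 3 ranges overlap. Because reticular-like cells are the most numerous, they still held 82.8% to 93.6% of the Igf1 UMIs of the stroma. Igfbp7, whose protein binds insulin-like growth factors only weakly and lies in vessel walls, had 5079 to 7589 CPM in pericyte and smooth muscle-like cells, above the 2231 to 3938 CPM of endothelial-like and the 2035 to 2399 CPM of reticular-like cells.

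Igfbp6, whose protein prefers insulin-like growth factor 2, was found mainly in fibroblast-like cells, which carry Pi16, Dpt and related markers. It had 566 CPM there in aged-injury, 825 CPM in aged and 263 CPM in control, against at most 0.893 CPM in reticular-like cells of any library. Fibroblast-like cells held 66.5% to 94.3% of the Igfbp6 UMIs of the stroma, although in naive and exhausted they were only 8 and 17 cells. The other class with a clear level was the chondrocyte-like one, 213 cells of the aged-injury library, with 62.8 CPM. Igfbp2 encodes a binding protein made in many tissues during growth, and it was low everywhere. It was highest in endothelial-like cells, with 30.9 CPM in naive, 53.8 in exhausted, 19.3 in aged-injury, 17.2 in aged and 32.2 in control, which is above the range of every other class.

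**Figure D1:**
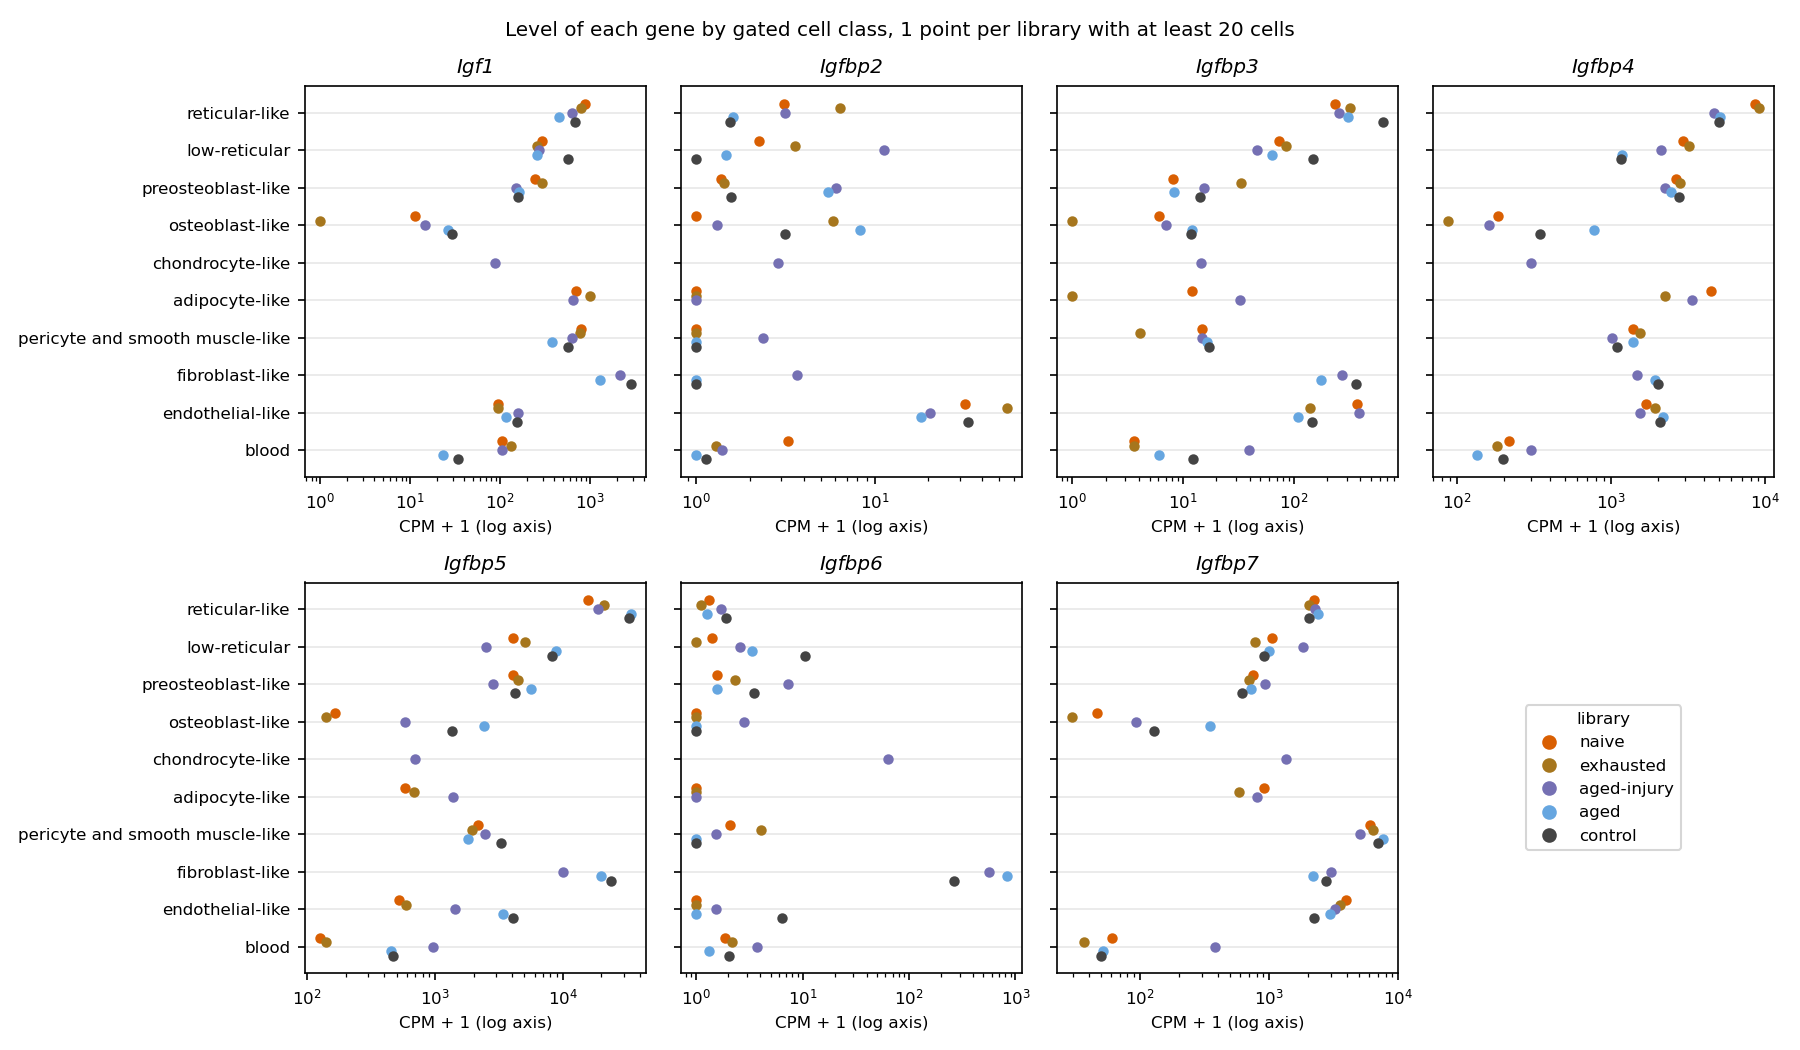
Level of each gene (CPM + 1, log axis) in each gated class, with 1 point per library that holds at least 20 cells of the class. Igfbp4 and Igfbp5 are highest in reticular-like cells, Igfbp3 overlaps between reticular-like, fibroblast-like and endothelial-like cells, Igfbp6 and Igf1 in fibroblast-like cells, Igfbp7 in pericyte and smooth muscle-like cells and Igfbp2 in endothelial-like cells, while osteoblast-like cells lie low for Igf1, Igfbp3, Igfbp4, Igfbp5 and Igfbp7.

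The levels of Igf1, Igfbp4 and Igfbp5 were lower in the preosteoblast-like and osteoblast-like classes than in reticular-like cells. Cells past both the reticular and the preosteoblast gate counted as reticular-like. There were 605, 316, 1546, 259 and 304 of them in naive, exhausted, aged-injury, aged and control. The preosteoblast-like class therefore holds only cells under the reticular gate. Within reticular-like cells Igfbp4 rose with the preosteoblast score, as described below. In preosteoblast-like cells, which carry Alpl, Sp7 and related markers, Igf1 had 148 to 290 CPM, Igfbp4 2237 to 2775 CPM and Igfbp5 2842 to 5594 CPM. Osteoblast-like cells, with the osteocalcin genes among their markers, had 0 to 27.9 CPM of Igf1, 86.7 to 774 CPM of Igfbp4 and 140 to 2400 CPM of Igfbp5. For Igf1 and Igfbp4 the ranges of the reticular-like, preosteoblast-like and osteoblast-like cells do not overlap, in falling order. For Igfbp5 they do not overlap either. Naive, exhausted, aged and control held only 21 to 31 osteoblast-like cells, and cells with blood markers had 22.1 to 132 CPM of Igf1, 133 to 299 CPM of Igfbp4 and 126 to 970 CPM of Igfbp5, so the osteoblast-like levels of these genes overlap the background.

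Among reticular-like cells, Igfbp5 was lower in the ablated libraries than in both uninjured ones. Igfbp3 was lower in each ablated library than in the uninjured library of its age, but it was also lower in aged than in control. Igfbp4 was higher in the ablated libraries of young mice than in control. In reticular-like cells Igfbp5 had 15832 CPM in naive cells, 20928 in exhausted, 18776 in aged-injury, 33895 in aged and 32696 in control. The 3 ablated libraries lie apart from and below both uninjured ones. The ratio to the uninjured library of the same age was 0.484 in naive cells (95% interval 0.482 to 0.486), 0.640 in exhausted (0.638 to 0.642) and 0.554 in aged-injury (0.553 to 0.555). Without surgery, aged and control stood close, with a ratio of 1.04 (1.03 to 1.04). The difference ran through the whole population of cells. The median reticular-like cell had 132 Igfbp5 UMIs per 10000 in naive cells, 179 in exhausted and 172 in aged-injury, against 294 in aged and 290.0 in control. The upper quartile of naive, 219.9 per 10000, lay below the median of control.

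Igfbp3 showed another order, in which control stood alone. Its level in reticular-like cells was 236 CPM in naive, 319 in exhausted, 256 in aged-injury, 309 in aged and 634 in control. All other libraries lie below control, the uninjured aged library included. The ratio to control was 0.373 in naive (0.362 to 0.384), 0.504 in exhausted (0.490 to 0.518) and 0.488 in aged (0.478 to 0.497), and aged-injury had 0.827 of the level of aged (0.811 to 0.844). With every cell thinned to 3000 UMIs, an Igfbp3 UMI was found in 31.6% of reticular-like cells in naive, 45.5% in exhausted, 36.3% in aged-injury, 39.8% in aged and 59.2% in control. In cells with blood markers, thinned in the same way, the share was 0.616% to 3.90%. Thinning kept 2011, 1748, 11319, 4797 and 5788 reticular-like cells of naive, exhausted, aged-injury, aged and control and left out the shallower ones. Unthinned, the shares of these libraries were 47.4%, 59.7%, 54.0%, 51.8% and 75.02%, at median depths of 8063, 7506, 9856, 7300.5 and 8876 UMIs. Endothelial-like cells had another order, with Igfbp3 at 2.54 times control in naive and 3.53 times aged in aged-injury. Without the cell with the most UMIs in naive and in aged-injury these ratios were 2.24 and 3.26. Exhausted stood at 0.942 of control in that class. In fibroblast-like cells aged-injury had 1.57 times the Igfbp3 level of aged.

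Igfbp4 moved the other way in young mice. In reticular-like cells it had 8579 CPM in naive, 9029 in exhausted, 4606 in aged-injury, 5061 in aged and 4963 in control. Naive and exhausted stand apart from and above the other 3 libraries, and aged-injury is the lowest. The ratio was 1.73 for naive against control (1.72 to 1.74), 1.82 for exhausted against control (1.81 to 1.83), 0.910 for aged-injury against aged (0.906 to 0.914) and 1.02 for aged against control (1.01 to 1.03). The median reticular-like cell had 76.2 Igfbp4 UMIs per 10000 in naive and 79.3 in exhausted, against 35.1 in aged-injury, 40.02 in aged and 42.3 in control. The higher Igfbp4 of young ablated mice was not seen in every class. Preosteoblast-like cells had 0.968 of control in naive and 1.02 in exhausted, and endothelial-like cells had 0.812 and 0.926.

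**Figure D2:**
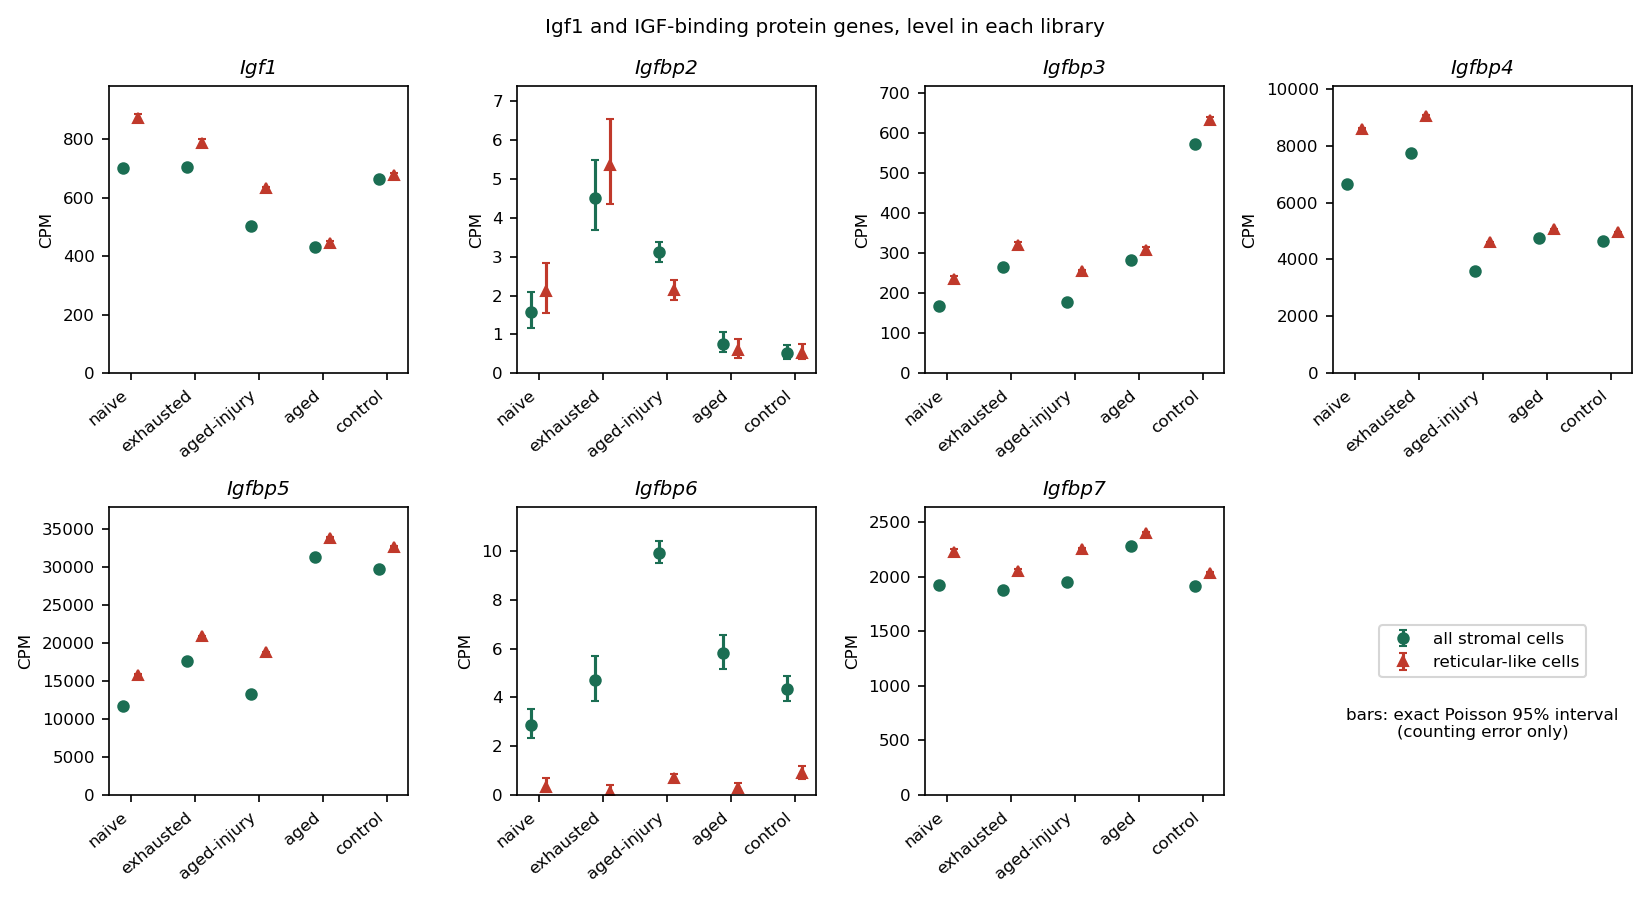
Level of each gene (CPM, linear axis from 0) in the 5 libraries, for all stromal cells (circles) and for reticular-like cells (triangles), with exact Poisson 95% intervals that are mostly smaller than the symbol. Igfbp5 is lower in naive, exhausted and aged-injury than in aged and control, Igfbp3 is highest in control, and Igfbp4 is highest in naive and exhausted.

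The promoters of these 3 genes are shown because of their levels in reticular-like cells. There Igfbp3 and Igfbp5 were both lower, and Igfbp4 higher, in the ablated libraries of young mice than in control. All 7 genes have an entry in the RefSeq promoter table of build GRCm38.p6, Igfbp2 with 2 starts; the files themselves were made on GRCm39, so these coordinates do not apply to them. Each sequence is the 250 bases before the gene's start, read in the direction of transcription, at chr11:7213924-7214173 on the minus strand for Igfbp3, chr11:99040994-99041243 on the plus strand for Igfbp4 and chr1:72874866-72875115 on the minus strand for Igfbp5. Capitals mark matches, on either strand, to a TATA box (TATAAA), a GC box (GGGCGG), an E-box (CACGTG) or the RUNX core (TGTGGT).
Igfbp3: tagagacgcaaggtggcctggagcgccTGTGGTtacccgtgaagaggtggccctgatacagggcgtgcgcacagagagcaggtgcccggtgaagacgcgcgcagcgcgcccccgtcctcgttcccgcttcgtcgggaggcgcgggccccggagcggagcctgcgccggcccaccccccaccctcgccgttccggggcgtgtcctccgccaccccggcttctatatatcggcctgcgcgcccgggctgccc
Igfbp4: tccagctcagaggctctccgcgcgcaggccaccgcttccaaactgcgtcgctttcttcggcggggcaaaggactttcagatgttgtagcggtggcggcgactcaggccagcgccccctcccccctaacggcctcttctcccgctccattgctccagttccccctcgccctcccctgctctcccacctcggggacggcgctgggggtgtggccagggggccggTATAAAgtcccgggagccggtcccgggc
Igfbp5: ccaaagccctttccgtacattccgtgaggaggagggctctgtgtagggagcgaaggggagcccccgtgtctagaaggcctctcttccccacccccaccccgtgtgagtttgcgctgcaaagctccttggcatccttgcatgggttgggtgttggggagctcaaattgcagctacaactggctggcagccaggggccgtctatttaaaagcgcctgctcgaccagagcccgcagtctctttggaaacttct
The RUNX core in the Igfbp3 promoter starts 223 bases before the start, and 14.0% of all 32851 promoters of that length hold this motif. Igfbp4 has a TATA box 28 bases before its start, a motif found in 12.4% of promoters. The Igfbp5 window has no match to any of these motifs. GC boxes occur in 32.7% and E-boxes in 6.02% of promoters. These matches describe the letters and are not binding sites shown by these data. G and C make up 73.2% of the Igfbp3 window, 69.2% of the Igfbp4 window and 58.8% of the Igfbp5 window.

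Igf1 was lowest in the aged library. In reticular-like cells it had 873 CPM in naive, 788 in exhausted, 632 in aged-injury, 445 in aged and 677 in control. Aged had 0.658 of the level of control (0.647 to 0.670), and in these cells each ablated library is above the uninjured library of its age. The ratio was 1.29 for naive against control (1.27 to 1.31), 1.16 for exhausted against control (1.14 to 1.19) and 1.42 for aged-injury against aged (1.40 to 1.44). The median reticular-like cell had 6.5 Igf1 UMIs per 10000 in naive cells, 6.4 in exhausted and 4.28 in aged-injury, against 3.18 in aged and 5.01 in control. Pericyte and smooth muscle-like cells showed the same order of the aged pair, with 627 CPM in aged-injury against 379 CPM in aged, a ratio of 1.65 (1.31 to 2.11), and so did fibroblast-like cells with 2174 against 1300 CPM. Other cells did not follow this order in every pair. In low-reticular cells, stromal cells with a weaker reticular signature that were left unnamed, Igf1 had 293 CPM in naive and 257 CPM in exhausted, against 565 CPM in control, ratios of 0.519 (0.472 to 0.570) and 0.455 (0.400 to 0.517). Of the 594 such cells of control, 1 held 160 of the 1196 Igf1 UMIs. Without that cell the ratios were 0.594 and 0.521, outside these intervals. In preosteoblast-like cells aged-injury had 148 CPM against 161 CPM in aged, a ratio of 0.921 (0.817 to 1.04). Naive and exhausted were above control in that class, at 1.56 and 1.86 times its level. Without their cell with the most UMIs they stood at 1.40 and 1.75 times control. The fibroblast-like cells of aged and control numbered 37 and 69, and their Igf1 stood at 1300 CPM in aged and 2827 CPM in control.

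In reticular-like cells Igfbp7 was the steadiest of the genes. Reticular-like cells had 2232 CPM in naive, 2051 in exhausted, 2256 in aged-injury, 2399 in aged and 2035 in control, so that the highest library stood at 1.18 of the lowest. In pericyte and smooth muscle-like cells, its leading class, the level was 6054 CPM in naive, 6379 in exhausted, 5079 in aged-injury, 7589 in aged and 7025 in control. These are sums over 21 to 306 cells, and aged-injury is the lowest library there with 0.669 of the level of aged (0.635 to 0.706). In endothelial-like cells Igfbp7 stood at 1.77 times control in naive and 1.58 times in exhausted. Low-reticular cells of aged-injury had 1.85 times the level of aged.

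Over all stromal cells the differences of Igfbp3 and Igfbp5 between an ablated library and the uninjured one of its age were larger than within reticular-like cells, and those of Igf1 and Igfbp4 in naive were smaller. For aged against control, Igfbp3 had a log2 ratio of -1.01 over all stromal cells and of -1.04 in reticular-like cells. Igfbp5 had 11763 CPM in naive, 17585 in exhausted, 13242 in aged-injury, 31399 in aged and 29802 in control, and Igfbp3 had 167, 266, 179, 284 and 572 CPM in the same libraries. Reticular-like cells made up 64.7% of the naive stromal cells, 76.0% in exhausted and 68.0% in aged-injury, against 84.8% in aged and 84.6% in control. Preosteoblast-like cells, which have less of both genes, made up 15.0%, 8.85% and 10.7% in naive, exhausted and aged-injury, against 3.78% in aged and 5.16% in control. With the class shares of the uninjured library held fixed, the log2 ratio of Igfbp5 over all stromal cells was -1.04 in place of -1.34 for naive against control and -0.86 in place of -1.25 for aged-injury against aged. For Igfbp3 it was -1.42 in place of -1.77 in naive.

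A ratio of at least 2-fold was taken as a call, among genes with at least 5 CPM in either library. Per comparison, 0 to 2 of the described genes were called over all stromal cells and in reticular-like cells. For naive against control, 6.68% of all genes were called over all stromal cells, 1.82% as lower, and of the 5 described genes that reached 5 CPM, Igfbp3 and Igfbp5 were called lower. Igfbp3 and Igfbp5 were also the ones called in reticular-like cells, where 4.86% of all genes were called and 1.84% were lower. For exhausted against control, Igfbp3 was called lower among 5 genes over all stromal cells (all genes 3%, lower 0.995%). In reticular-like cells Igfbp3 at 0.504 just missed the call and Igfbp2 alone of 6 genes was called, higher (all genes 2.73%, higher 1.46%). For exhausted against naive no described gene of 5 was called over all stromal cells (all genes 1.87%), and Igfbp2 alone of 6 was called higher in reticular-like cells (all genes 1.18%, higher 0.444%). Over all stromal cells Igfbp3 and Igfbp5 were higher in exhausted than in naive, by 1.59-fold (1.53 to 1.65) and 1.49-fold (1.49 to 1.502), and in reticular-like cells by 1.35-fold (1.30 to 1.41) and 1.32-fold (1.32 to 1.33). For aged against control, Igfbp3 alone of 6 genes was called lower over all stromal cells (all genes 1.54%, lower 0.792%), and alone of 5 in reticular-like cells (all genes 1.39%, lower 0.608%). Its ratios, 0.496 over all stromal cells and 0.488 in reticular-like cells, lie so near the limit that the call was lost with other scalings of the libraries. For aged-injury against aged, Igfbp5 was called lower over all stromal cells among 6 genes (all genes 7.69%, lower 2.12%), and no gene of 5 was called in reticular-like cells (all genes 4.22%). Low-reticular cells had more calls against control, 4 of 6 in naive (all genes 15.9%), 3 of 6 in exhausted (15.4%) and 3 of 6 in aged (9.03%). There exhausted against naive had 0 of 5 (13.2%) and aged-injury against aged 2 of 6 (34.5%). Igfbp6 is among the calls against control, with 20 UMIs in control, 13 of them in 1 cell. Calls in other classes, apart from preosteoblast-like cells, are not listed here. The median log2 ratio of the described genes over all stromal cells was 0.01 for naive, -0.03 for exhausted and 0.05 for aged, each against control, and -0.31 for aged-injury against aged; over all genes tested it was 0.15, 0.07, -0.04 and 0.09 in the same order. Naive, exhausted and aged share the control library in these comparisons, so their ratios are not independent of each other.

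**Figure D3:**
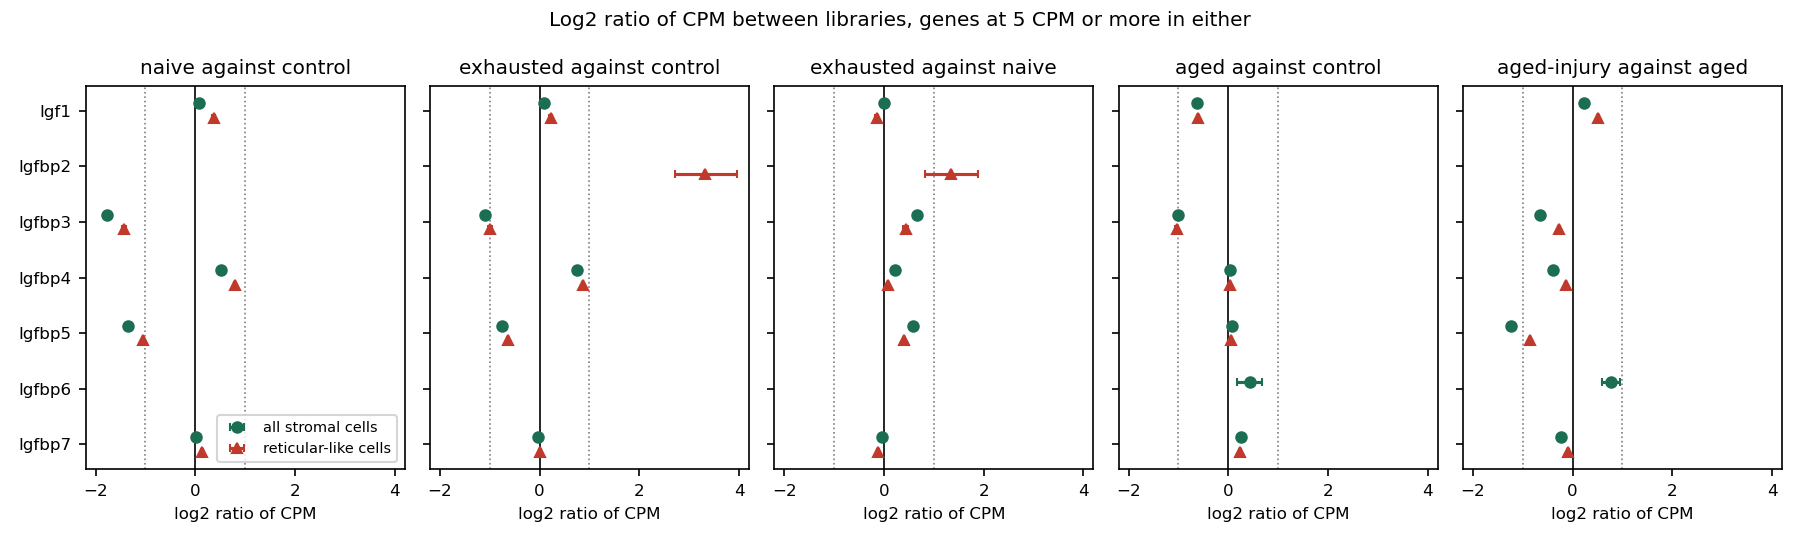
Log2 ratio of CPM for the 5 comparisons, for all stromal cells (circles) and reticular-like cells (triangles), with exact conditional 95% intervals and dotted lines at 2-fold; genes under 5 CPM in both libraries are not drawn. Igfbp3 lies left of 0 in each comparison with control and Igfbp5 in each comparison of an ablated with an uninjured library, while Igfbp4 lies right of 0 in naive and exhausted and left of it in aged-injury.

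Igfbp2 was called higher in exhausted reticular-like cells, at 5.36 CPM against 2.12 CPM in naive and 0.536 CPM in control. That value is 97 UMIs in 14 cells, and 1 cell held 60 of them. Without that cell, 37 UMIs and 2.05 CPM remained, under the 5 CPM that a call needs, at 0.968 times the level of naive and 3.82 times that of control. In aged-injury, 111 of 11592 reticular-like cells had an Igfbp2 UMI, with 2.14 CPM against 0.603 CPM in aged. Igfbp6 stood over all stromal cells at 2.88 CPM in naive, 4.70 in exhausted, 9.94 in aged-injury, 5.84 in aged and 4.34 in control. The value of aged-injury was highest, 1.70 times that of aged (1.504 to 1.93), and 17.7% of its UMIs came from chondrocyte-like cells, of which aged held none. Within fibroblast-like cells the order was the other way, 566 CPM in aged-injury against 825 CPM in aged, a ratio of 0.686 (0.601 to 0.785). In those of control it was 263 CPM, so aged stood at 3.14 times control (2.60 to 3.80), in 27 and 32 cells with a UMI. Of the 37 fibroblast-like cells of aged, 1 held 56 of the 271 Igfbp6 UMIs. Without that cell the ratio of aged-injury to aged was 0.837 and that of aged to control 2.57, each outside its interval.

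The lower Igfbp5 after ablation, the lower Igfbp3 outside control and the difference of Igfbp4 in young mice were seen along most of the range of reticular scores, while the aged pair for Igfbp4 and the libraries for Igf1 changed order along it. The reticular score is the number of reticular marker UMIs per 10000 UMIs of a cell. Igfbp5 was higher at each step of the score in every library, apart from 1 step in control. At scores of 600 and more it had 22897 CPM in naive cells, 25454 in exhausted and 23595 in aged-injury, against 38989 in aged and 37628 in control. In each of the 6 ranges the 3 ablated libraries lay below both uninjured ones. Igfbp4 had 1271 CPM in naive and 1316.5 CPM in exhausted at scores below 50, against 1451 CPM in control. In the other 5 ranges naive and exhausted were above control. At scores of 600 and more Igfbp4 had 13138 CPM in naive and 10395 in exhausted, against 5151 in aged-injury, 6329 in aged and 5599.5 in control. The aged pair had the other order at lower scores, with Igfbp4 at 2053 CPM in aged-injury against 1587 CPM in aged from 50 to 100, 3207 against 2254 CPM from 100 to 200 and 4399 against 3544 CPM from 200 to 400, and it was nearly equal from 400 to 600, with 4572 CPM in aged-injury and 4568 CPM in aged. In low-reticular cells as a class, Igfbp4 had 2904 CPM in naive and 3169 CPM in exhausted against 1151 CPM in control, and 2095 CPM in aged-injury against 1170 CPM in aged, a ratio of 1.79 (1.72 to 1.87). Igf1 was lower in naive and exhausted than in control at each score below 200. From 100 to 200 it had 403 and 401 CPM against 674 CPM. It was higher in both at each score from 200 upwards. Aged-injury was below aged for Igf1 from 50 to 100, with 235 against 503 CPM. The ranges below 200 mix several classes. Fibroblast-like cells, with a median score of 45.7 in control, held 5.01% of the stromal Igf1 UMIs of control, 0.329% in naive and 1.24% in exhausted. For Igfbp5 these shares were 0.948%, 0.0989% and 0.320%. The part of class make-up in the low-score differences was not tested. Igfbp3 was highest in control in every range, where at scores of 600 and more it had 263 CPM in naive, 436 in exhausted, 338 in aged-injury and 416.5 in aged, against 796 in control.

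**Figure D4:**
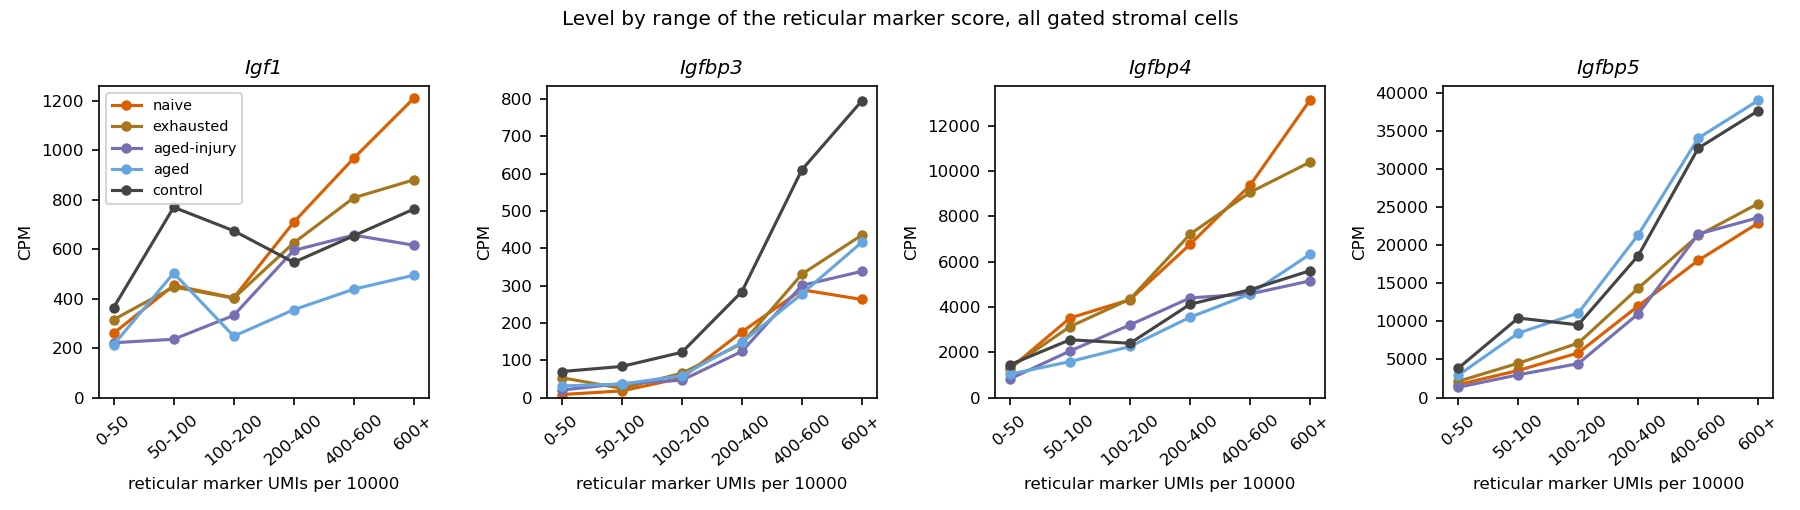
Level (CPM) of 4 genes in gated stromal cells by range of the reticular marker score (marker UMIs per 10000 UMIs), with 1 line per library. Igfbp5 lines of the ablated libraries lie below those of aged and control in every range, Igfbp3 is highest in control, and Igfbp4 of naive and exhausted parts from the other libraries towards high scores.

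Reticular-like cells also carried more preosteoblast markers after ablation, with a median score of 24.9 per 10000 in naive cells, 12.6 in exhausted and 16.6 in aged-injury, against 5.99 in aged and 7.04 in control. Across ranges of that score the binding protein genes took different courses. In reticular-like cells with a preosteoblast score below 10, Igfbp3 had 248 CPM in naive, 379 in exhausted, 283 in aged-injury, 322 in aged and 693 in control. At 100 or more it had 83.4 CPM in naive, 62.0 in exhausted, 82.2 in aged-injury, 28.5 in aged and 55.6 in control, lower in every library. Igfbp4 ran upwards, with 7104, 7793, 4026, 4494 and 4416 CPM below 10 in naive, exhausted, aged-injury, aged and control, and 10254, 10852, 7213, 10176 and 9127 CPM at 100 or more. For Igfbp4 the naive and exhausted libraries were above control below 10, and nearer to it at 100 or more. For Igfbp3 the order changed. At 100 or more naive and exhausted were above control, and aged-injury was above aged. Naive had 12617 CPM of Igfbp5 against 33014 CPM in control below 10. It was less far below control at 100 or more, with 13857 against 21109 CPM. The part of the preosteoblast markers in the differences between libraries was not tested.

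Outside the reticular-like cells, the lower Igfbp5 after ablation was seen in part of the classes. In low-reticular cells its ratio was 0.498 for naive and 0.622 for exhausted, each against control, and 0.284 for aged-injury against aged. In fibroblast-like cells it was 0.499 for aged-injury against aged. The aged pair went the other way in pericyte and smooth muscle-like cells. There Igfbp5 took 8992 of 3672401 UMIs in aged-injury and 355 of 195015 in aged, a smaller share. In preosteoblast-like cells Igfbp5 had 4091 CPM in naive, 4429 in exhausted, 2842 in aged-injury, 5594 in aged and 4212 in control, so that aged-injury stood at 0.508 of aged (0.498 to 0.519) and naive at 0.971 of control (0.951 to 0.992). In endothelial-like cells it had 524 CPM in naive cells, 587 in exhausted and 1425 in aged-injury, against 3422 in aged and 4050 in control. Few cells carried these sums: 1 of 61 cells held 754 of the 2264 UMIs of control, without which its level was 2811 CPM, and 1 of the 62 cells of aged held 336 of its 1792 UMIs. In exhausted, 1 of 176 cells held 237 of 829 UMIs, without which the level was 423 CPM. The median reticular score of these endothelial-like cells was also lower in the ablated libraries, with 11.8, 7.88 and 15.7 per 10000 in naive, exhausted and aged-injury against 32.9 in aged and 28.3 in control. Cells with blood markers had 126, 139 and 970 CPM of Igfbp5 in those ablated libraries, against 454 and 471 CPM in aged and control. The part of reticular RNA in the endothelial-like values was not tested. In preosteoblast-like cells Igfbp3 alone of 5 genes was called for exhausted against control (all genes 7.72%, higher 4.2%) and for exhausted against naive (all genes 4.69%, higher 2.45%), with 32.3 CPM in exhausted against 7.05 CPM in naive and 13.3 CPM in control. The exhausted value is 75 UMIs in 23 of 246 cells, with 18 in 1 cell; without that cell the ratio was 1.85 to control, which loses the call, and 3.51 to naive. For aged-injury against aged, 2 of 7 genes were called, both higher (all genes 15.3%, higher 5.92%). Igfbp3 had 14.6 CPM in aged-injury against 7.27 CPM in aged, where it rests on 13 UMIs, and without 1 cell of aged-injury the ratio of 2.01 was 1.92, which loses the call. Igfbp6 had 6.25 CPM in aged-injury against 0.559 CPM in aged, which is 1 UMI, a ratio of 11.2 (1.98 to 444). Of its 167 UMIs in aged-injury, 1 cell held 39. Without that cell 4.79 CPM remained, under the 5 CPM that a call needs, so this call is lost too. Cells with blood markers had 2.62 to 38.7 CPM of Igfbp3 over the libraries, with a median of 5.04 CPM. All of these Igfbp3 levels lie within that range and above its median. They were not set against the blood level of their own library.

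Other genes of the pathway were read from a list of 40, of which 31 or 32 reached 5 CPM over all stromal cells in a comparison. Among the growth factors, Igf2 stayed below 1 CPM in every library, with 0.903 CPM in aged-injury the highest. Igf1r, the receptor gene, had 113 CPM in naive cells, 112 in exhausted and 105 in aged-injury, against 136 in aged and 159 in control, and was not called. Ghr, the growth hormone receptor gene, had 739 CPM in naive and 592 in exhausted, against 381 in control, a ratio of 1.94 (1.91 to 1.98) for naive that fell short of the call; in aged-injury it had 417 against 438 CPM in aged. Socs3, a feedback inhibitor of cytokine signalling, had 295 CPM in aged-injury against 593 CPM in aged and was called lower, with a ratio of 0.497 (0.490 to 0.504). That interval crosses the 2-fold limit. No gene of the list was called lower for this comparison in reticular-like cells.

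Among the genes that act on the binding proteins, Stc1 stood out. Over all stromal cells it had 28.3 CPM in naive, 19.8 in exhausted, 35.7 in aged-injury, 10.5 in aged and 3.61 in control. It was called higher for naive, exhausted and aged, each against control, and for aged-injury against aged, with log2 ratios of 2.97, 2.46, 1.53 and 1.77. In reticular-like cells it had 33.0 CPM in naive, 20.8 in exhausted, 43.6 in aged-injury, 10.4 in aged and 2.30 in control, in the same order. Stc1 was highest in endothelial-like cells, with 208 to 441 CPM, and in pericyte and smooth muscle-like cells, with 87.2 to 618 CPM; cells with blood markers had 0.0908 to 16.2 CPM. Pappa2 had 11.7 CPM in aged-injury against 4.81 CPM in aged and was called higher, while Pappa had 463 against 749 CPM, a ratio of 0.619 (0.611 to 0.626). In naive and exhausted Pappa had 794 and 776 CPM, against 726 in control. Igfals, which encodes the third partner of the complex that carries the growth factor in blood, was called higher in exhausted reticular-like cells, with 8.07 CPM against 3.72 CPM in control.

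Counted over the list and all stromal cells, 1 of 32 genes was called for naive against control and 1 of 32 for exhausted against control, 0 of 32 for exhausted against naive, 1 of 31 for aged against control and 3 of 32 for aged-injury against aged, where Stc1 and Pappa2 were higher and Socs3 lower. Over all genes the shares called were 6.68%, 3%, 1.87%, 1.54% and 7.69% in the same order. The median log2 ratio of the list was 0.25, 0.18, -0.12, 0.00 and 0.05 in the same order, beside 0.15, 0.07, -0.08, -0.04 and 0.09 over all genes.

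**Figure D5:**
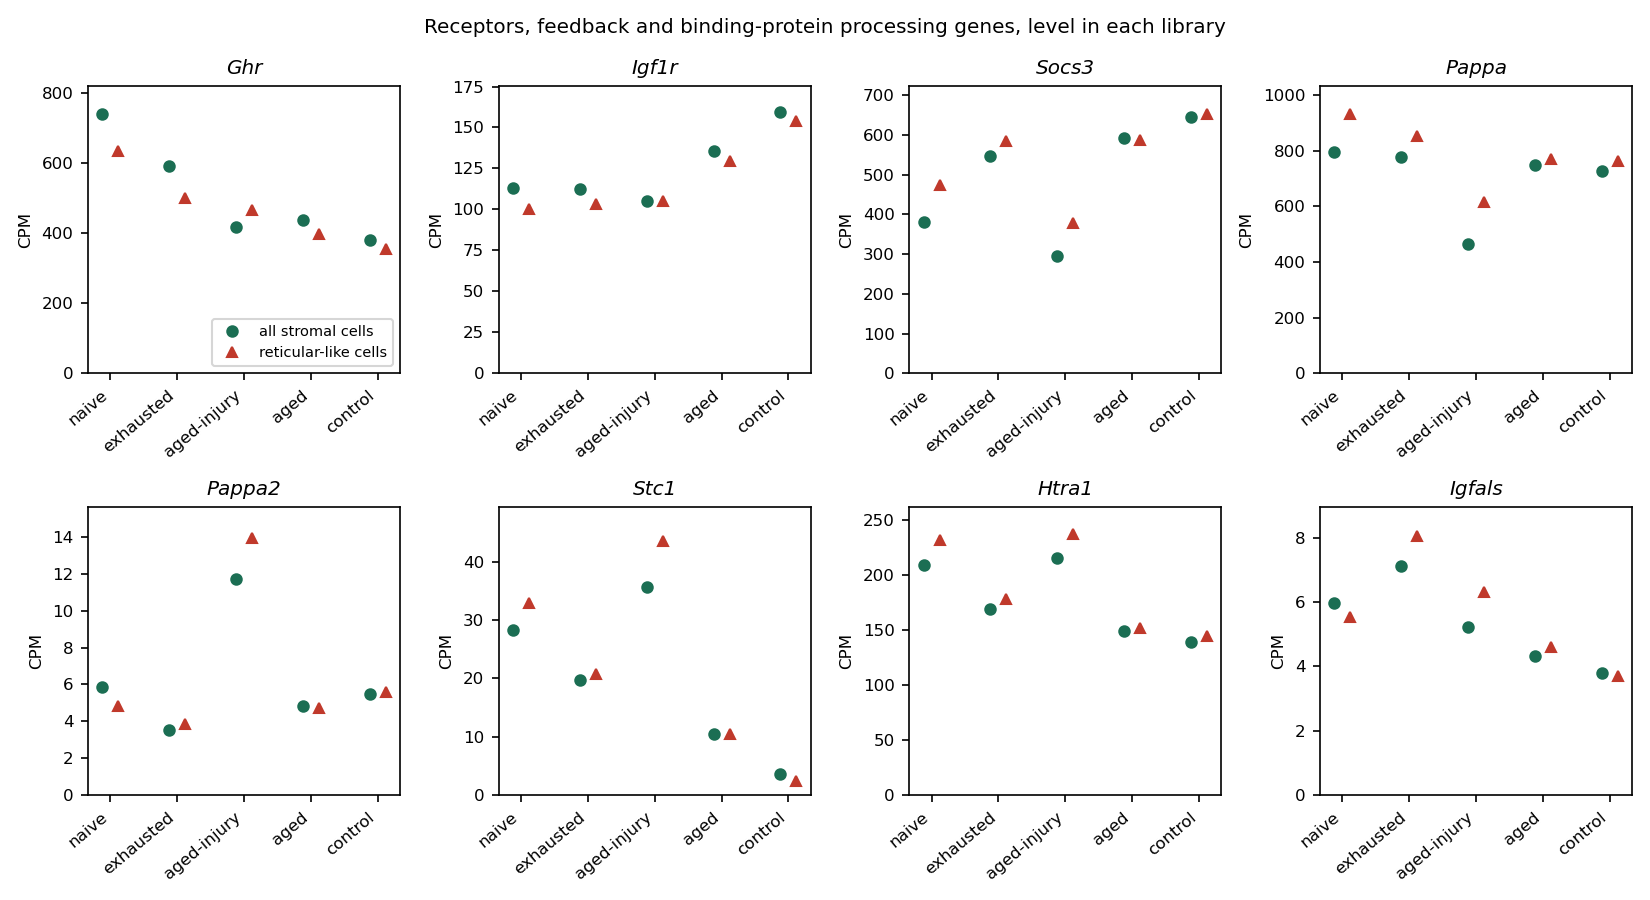
Level (CPM, linear axis from 0) of 8 further genes of the pathway in the 5 libraries, for all stromal cells (circles) and reticular-like cells (triangles). Stc1 is higher in naive, exhausted and aged-injury than in aged and control, Pappa2 is highest in aged-injury, and Ghr is highest in naive and exhausted.

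The genes with the most similar levels were sought over 34 sums of 1 class in 1 library, among 10801 genes, by Pearson correlation of log2(CPM + 1); these sums share libraries, and the values are descriptions. Igfbp5 was most like C1ra (0.97), Lepr (0.95, a marker of the reticular gate) and Serping1 (0.95). Igfbp4 was most like Tmem159 (0.90), Gas6 (0.89, also a marker of that gate) and Lamb1 (0.89), and Igfbp3 like Fmo2 (0.90), Plpp3 (0.88) and Enpp3 (0.85). Igfbp6 was most like Cilp (0.95), Myoc (0.92) and Cpxm2 (0.90), and Igfbp7 like Nid1, Cavin1 and Tns2 (0.93 each). For Igf1 the closest were Lrp6 (0.85), Cygb (0.84) and Ndn (0.84), and for Igfbp2 they were Edn1 (0.87), Prex2 (0.87) and Podxl (0.84).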

How the data were processed

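The authors deposited 1 matrix of UMI counts per library, whole numbers with no normalization, made on GRCm39, with Seurat 5.1 named, per the submitters' processing notes; aligner and cell caller, not given in the sources used here, are unknown. Symbols not listed in a library were counted as 0. The 5 libraries held 7480 to 20867 cells and 58895655 to 224155538 UMIs.

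Cells were kept from 500 genes and 1000 UMIs upwards where mitochondrial UMIs were under 25%. Classes came from scores of marker UMIs per 10000 UMIs of a cell, with at least 3 markers detected for a stromal class: reticular 200 (50 to 200 stayed an unnamed low-reticular class, shallow), preosteoblast 50, osteoblast 50, pericyte and smooth muscle 50, adipocyte 10, fibroblast 10, chondrocyte 30, endothelial 30 (not in the stromal sum), and for blood leukocyte 20, neutrophil 100, B lineage 20, macrophage and monocyte 30 and erythroid 100. The cuts were set after seeing marker scores, but not the described genes; Ibsp, Phex and Car3 were left out of the osteoblast score. Mixed cells, past a blood gate and with a reticular score of at least 100 or a preosteoblast score of at least 75, were left out as possible doublets. They numbered 50, 87, 117, 71 and 188 in naive, exhausted, aged-injury, aged and control, and no doublet caller was run. Any other cell past a blood gate was put in the blood class, also where it passed the gate of another class. Libraries shared at most 5 cell index numbers, none with the same UMI total.

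CPM were computed from summed UMIs, with exact Poisson intervals, exact conditional binomial intervals for ratios and Clopper-Pearson intervals for shares. Levels were given for classes of at least 20 cells. Calculations used Python 3.11.15, numpy 2.4.6, scipy 1.17.1 and pandas 2.3.3, and the alternative scalings edgeR 4.0.16 and DESeq2 1.42.0 in R 4.3.3. The ratio script was tested on simulated counts. Thinning to 3000 UMIs used seed 1. Genes named beyond the 7 were pathway list genes at least 2-fold different, the 3 genes most like each, and, chosen after their values were seen, Igf2, Igf1r, Ghr and Pappa. The genes and lists were chosen with earlier results of these data known. GRCm38 coordinates were used for promoters only.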

Additional observations from a re-analysis of the deposited data

Results flagged for a closer look

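A gene was singled out where ablation in young and in aged mice moved it in opposite directions. Igfbp4 over all stromal cells had a log2 ratio of 0.52 for naive against control and of -0.40 for aged-injury against aged. In reticular-like cells the Igfbp4 values were 0.79 and -0.14. The opposite directions were not seen in every population: in low-reticular cells the Igfbp4 values were 1.34 and 0.84, and aged-injury was above aged in each range of the reticular score from 50 to 400. Igfbp7 in reticular-like cells had log2 ratios of 0.13 and -0.088 for the same comparisons. With 1 library per group these differences were not tested, and naive was taken 2 weeks after surgery whereas aged-injury was taken 1 week after it, so age and time after surgery cannot be told apart.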

How the results depend on the processing

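Of 621 alternative values for 54 log2 ratios of the described genes, 596 kept their sign and 25 did not; none of those called changed sign in these settings. The other 25 include Igfbp6 for aged-injury against aged over all stromal cells, which was 0.77 and became -0.31 with fixed class shares. Other scalings lowered the median log2 ratio of all genes by 0.17 for naive against control. The settings that keep mixed cells and that leave out cells with endothelial UMIs, and the values without the cell that holds most UMIs of a gene, were chosen after seeing the data. Without its cell with the most UMIs, the called Igfbp2 ratio of exhausted against naive in reticular-like cells became 0.968.

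Counts of described genes called over all stromal cells were, for exhausted against control, 2 with a stricter cell filter or without endothelial UMIs and 0 with fixed class shares; for exhausted against naive, 1 with the stricter filter or without endothelial UMIs; for aged against control, 0 with the stricter filter, mixed cells kept, edgeR or DESeq2 scaling and 2 with fixed class shares; for aged-injury against aged, 2 with doubled gates and 0 with thinning or fixed class shares. In reticular-like cells they were, for naive against control, 1 with doubled gates or a mean over cells; for exhausted against control, 2 with halved gates, edgeR or DESeq2 scaling and 0 without leukocyte UMIs, with thinning or a mean over cells; for exhausted against naive, 0 in these last 3 settings; for aged against control, 0 with the stricter filter or either scaling. The cause was not tested.

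Called genes of the pathway list over all stromal cells were 5 (naive against control), 4 (exhausted against control) and 8 (aged-injury against aged) without a filter, and 0 for exhausted and for aged against control at 20 CPM. The same filters called 22.1%, 16.2% and 25% of all genes without a filter, against 13.5%, 10.8% and 21.1% of the list, and 1.91% and 0.892% of all genes at 20 CPM. In reticular-like cells they were 3, 4, 3 and 5 without a filter for naive, exhausted and aged against control and aged-injury against aged, and 1, 0 and 1 at 20 CPM for the last 3. There all genes were called at 18.6%, 16%, 13.8% and 23% without a filter and 1.85%, 0.78% and 2.87% at 20 CPM.

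No paired analysis was possible because each group has 1 library and the labels carry no replicate numbers. Depth limits Igfbp2 and Igfbp6, which rest on few cells.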
